A study of Mus musculus with 19 samples.

Results

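The genes described here are the hnRNP, SR protein and spliceosomal genes of mouse liver, taken as every gene of the expression table whose symbol begins with Hnrnp, Raly, Srsf, Snrp, Sf3a, Sf3b, U2af, Ptbp or Celf. There were 66 such genes among 24054 in the table, and 60 of them had a mean value of at least 1 over the 6 mice and were tested. By subfamily, these were 20 of 20 hnRNP genes, 1 of 2 RALY genes, 10 of 11 SR protein genes, 12 of 12 snRNP protein genes, 3 of 3 SF3A, 6 of 6 SF3B and 3 of 3 U2AF genes, 3 of 3 PTBP genes and 2 of 6 CELF genes. The 6 genes under that minimum were Ralyl and Celf6, for which no read was counted in any mouse, Srsf12 with 1 read in all, Celf5 with 2, Celf3 with 10 and Celf4 with 100. All 60 tested genes were well covered, with 1294 to 54658 reads each over the 6 livers.

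Both groups were Raly flox/flox mice on a C57BL/6 background, in which loxP sites flank exons 3 and 4 of Raly. The 3 L-RalyKO mice had received AAV8.TBG.Cre, an adeno-associated virus whose TBG promoter is active in hepatocytes, and the 3 controls had received the same kind of virus with green fluorescent protein in place of Cre (AAV8.TBG.GFP). Livers of chow-fed mice were taken 4 weeks after the virus, and the methods give male mice unless another sex is stated and give no age. The labels give the controls as wild type, whereas the methods describe floxed littermates. Whole liver also holds cells that the TBG promoter does not target, and in such bulk samples fewer cells of a type cannot be told apart from less RNA per cell.

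HnRNPs coat nascent transcripts and act in splicing, export and stability of mRNA, and a few also act on transcription. SR proteins bind exonic enhancers and help to recruit the spliceosome, whereas several hnRNPs, PTBP among them, often repress the same exons. The small nuclear ribonucleoproteins (snRNPs) recognise the splice sites: the Sm proteins form a ring on the snRNAs, U2AF reads the 3′ splice site, and SF3A and SF3B anchor the U2 snRNP at the branch site. Many of these proteins are encoded by families that regulate their own and each other's mRNAs. The question here was whether loss of RALY, itself an hnRNP, left the mRNAs of this machinery in place.

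The values are reads per gene divided by the effective size of the library and brought to a common scale, on which 1 read is worth 0.0263 to 0.0351, written below as values. Libraries held between 28302983 and 38052705 reads, and 3 reads correspond to a value of 0.0789 to 0.105. Liver identity was as labelled, with Alb between 63858 and 71897 in every mouse. All 8 hepatocyte markers examined had log2 fold changes above 0, of which only Hnf4a passed the test, and their sum was 107218 to 107953 in L-RalyKO and 96164 to 105139 in controls. No tested marker of Kupffer, endothelial, stellate, bile duct, lymphoid, neuronal or proliferating cells passed the test. Only 1 of 6 lymphoid, 2 of 4 proliferation and 2 of 4 neuronal markers reached the minimum mean. The summed proliferation markers did not overlap, at 4.06 to 4.95 in L-RalyKO and 3.19 to 3.60 in controls. Nor did the neuronal sum, at 17.4 to 20.3 and 15.0 to 17.3, whereas the sums of the other types just named overlapped. The part of these markers in the results below was not tested.

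In the 60 tested genes, 2 had an adjusted p under 0.05 (limma on log2(value + 1), Benjamini-Hochberg over all 11580 tested genes), namely Raly, which fell, and Hnrnpc, which rose. That is 3.33% of the genes, against 6.55% of all genes tested. The share over all genes depended on the mice: leaving out 1 mouse in turn gave 2.87% without L-RalyKO replicate 1, 3.77% without replicate 2 and 4.24% without replicate 3, and 3.19%, 4.66% and 7.02% without control replicates 1, 2 and 3. The members called stayed at 2 of 60 (3.33%) except without control replicate 2, when they were 3 (5%), so that their share was not below that of all genes in 3 of these 6 fits. With every gene that had a read in the test, the shares were 3.12% and 2.81%. On reads recovered from the values, edgeR and limma voom each called 2 of the 60, against 6.31% and 6.36% of all genes, and DESeq2 called 3, against 9.36%. At an unadjusted p under 0.05 there were 9 of 60 (15%) against 22.7% of all tested genes, and the 2 groups of mice did not overlap for 11 of 60 (18.3%) against 28.1%. The median log2 fold change was −0.01 over the 60 genes and 0.00 over all genes, and the median size of the change, regardless of sign, was 0.0819 against 0.0954.

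**Figure D1:**
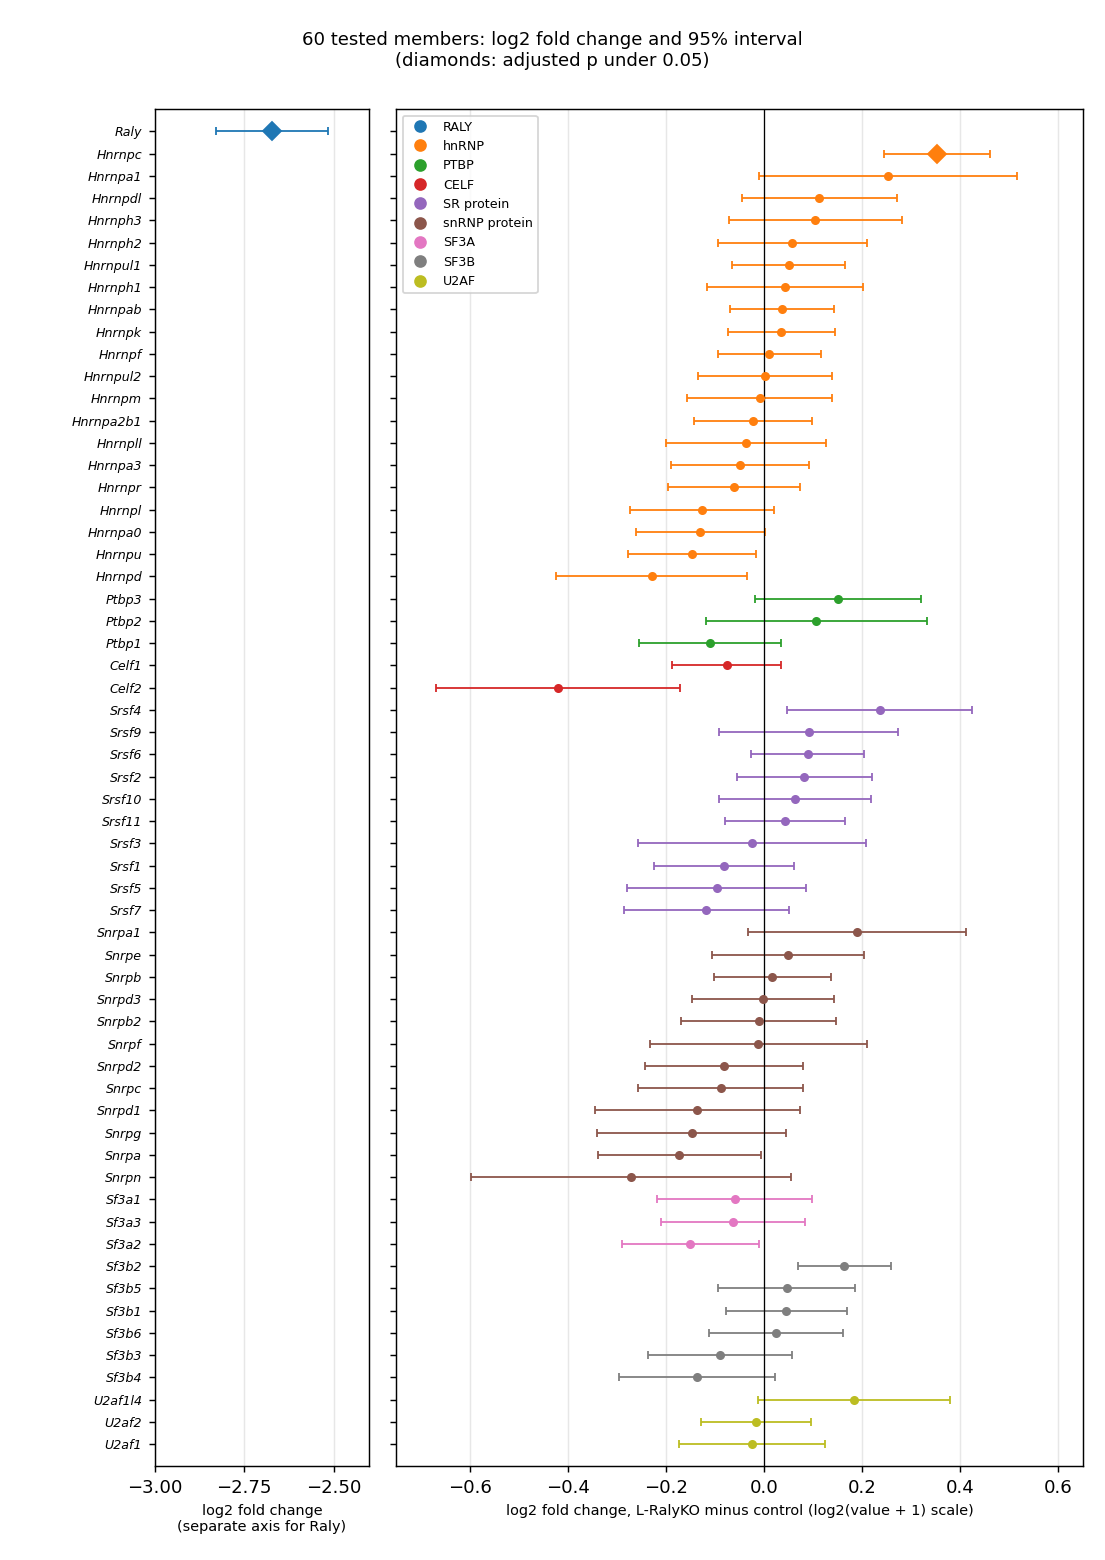
Log2 fold change (L-RalyKO minus control, log2(value + 1) scale, points) with its 95% interval (bars, limma, n = 3 mice per group) for each of the 60 tested genes, coloured by subfamily, with diamonds for an adjusted p under 0.05. Raly is drawn on an axis of its own at −2.67, Hnrnpc stands at 0.35, and the other 58 genes lie between −0.42 and 0.25.

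Raly is the gene the virus was meant to remove. It lies on chromosome 2 (chr2:154616832-154692997, + strand, NCBIM37, which is mm9), and its protein is an RNA-binding hnRNP with an RNA recognition motif. The exons numbered 3 and 4 in the transcript Raly-001 are shown because Cre is meant to remove them, although exon numbers differ between transcripts and the transcript used for the numbering is not stated. Exon 3 (chr2:154683005-154683269, + strand) carries the annotated start codon, which is in capitals, and exon 4 (chr2:154685414-154685486, + strand) is coding throughout.
Raly exon 3: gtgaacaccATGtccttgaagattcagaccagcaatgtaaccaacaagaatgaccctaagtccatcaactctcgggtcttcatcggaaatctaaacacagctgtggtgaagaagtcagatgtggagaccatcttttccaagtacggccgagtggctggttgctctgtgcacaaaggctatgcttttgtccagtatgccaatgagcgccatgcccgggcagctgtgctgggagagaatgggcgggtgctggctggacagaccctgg
Raly exon 4: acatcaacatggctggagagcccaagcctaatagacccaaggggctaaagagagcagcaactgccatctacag

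The values of Raly were 50.1, 48.6 and 46.8 in control liver and only 6.34, 6.61 and 7.39 in L-RalyKO liver. All 3 L-RalyKO livers were far below every control, with little spread inside either group. The mean was 13.98% of the control mean (log2 fold change −2.67, standard error 0.069, adjusted p = 6.92e-07, limma), and the exact two-sided permutation test gave p = 0.1, the smallest that 3 against 3 mice allow. Exons 3 and 4 hold 338 of 3292 bases in the union of annotated Raly exons (10.3%), and 19.3% of the 1747 bases of Raly-001. How reads were counted is not stated. If they were counted over all exons, the fall was not limited to the reads of the floxed exons. None of the 50-base words of the Raly transcripts occurs elsewhere in the genome, and the agouti gene, whose exons overlap those of Raly on the same strand, was listed at 0 in all 6 livers. Reads of cells outside the reach of the TBG promoter and reads of the recombined allele cannot be told apart in these values.

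The reads of Raly made up 2.47% ± 0.189 of all hnRNP and RALY reads in control liver and 0.353% ± 0.0238 in L-RalyKO liver (SD, n = 3 mice each). Per kilobase of exon, Raly had a level of 14.7 in controls, which ranked 26 of the 60 tested genes, and of 2.06 in L-RalyKO, which ranked 57. The length used is the union of all annotated exons, 3292 bases for Raly, whereas the transcript Raly-001 has 1747. These levels and ranks therefore depend on the annotation. The Raly protein was aligned only with those of Ralyl, Hnrnpc and Hnrnpk (translations of the GENCODE coding sequences). Identity over the alignment was 51.1% for Ralyl, 40.2% for Hnrnpc and 15.1% for Hnrnpk. Ralyl, for which no read was seen in either group, was not detectable at this depth, where 3 reads correspond to a value of at most 0.105.

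Hnrnpc encodes the hnRNP C proteins, which bind uridine runs in nascent RNA as tetramers and keep cryptic exons from being spliced in. It lies on chromosome 14 (chr14:52693055-52723703, − strand, NCBIM37). Its values were 100.5, 97.4 and 100.5 in L-RalyKO and 75.7, 76.4 and 81.1 in control liver. Each L-RalyKO mouse exceeded every control, by a margin that was larger than the range of either group. The rise was 1.28-fold (log2 fold change 0.35, 95% interval 0.24 to 0.46, adjusted p = 0.0052, limma), and Hnrnpc passed the same threshold in all 17 alternative fits, with log2 fold changes of 0.32 to 0.38 and adjusted p between 5.15e-06 and 0.0292. Per kilobase of exon, the level of Hnrnpc rose from 27.3 to 35.0, a gain of 7.64, while Raly lost 12.7 on the same scale. Both sizes depend on the annotated exon lengths, so they do not compare amounts of transcript. The summed value of both genes was 106 ± 1.99 in L-RalyKO and 126 ± 1.51 in control mice (SD, n = 3 each), without overlap (exact two-sided permutation p = 0.1, the smallest possible). Of the 50-base words of the Hnrnpc transcripts, 25.2% also occur elsewhere in the genome, and how reads with several matches were counted is not stated.

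**Figure D2:**
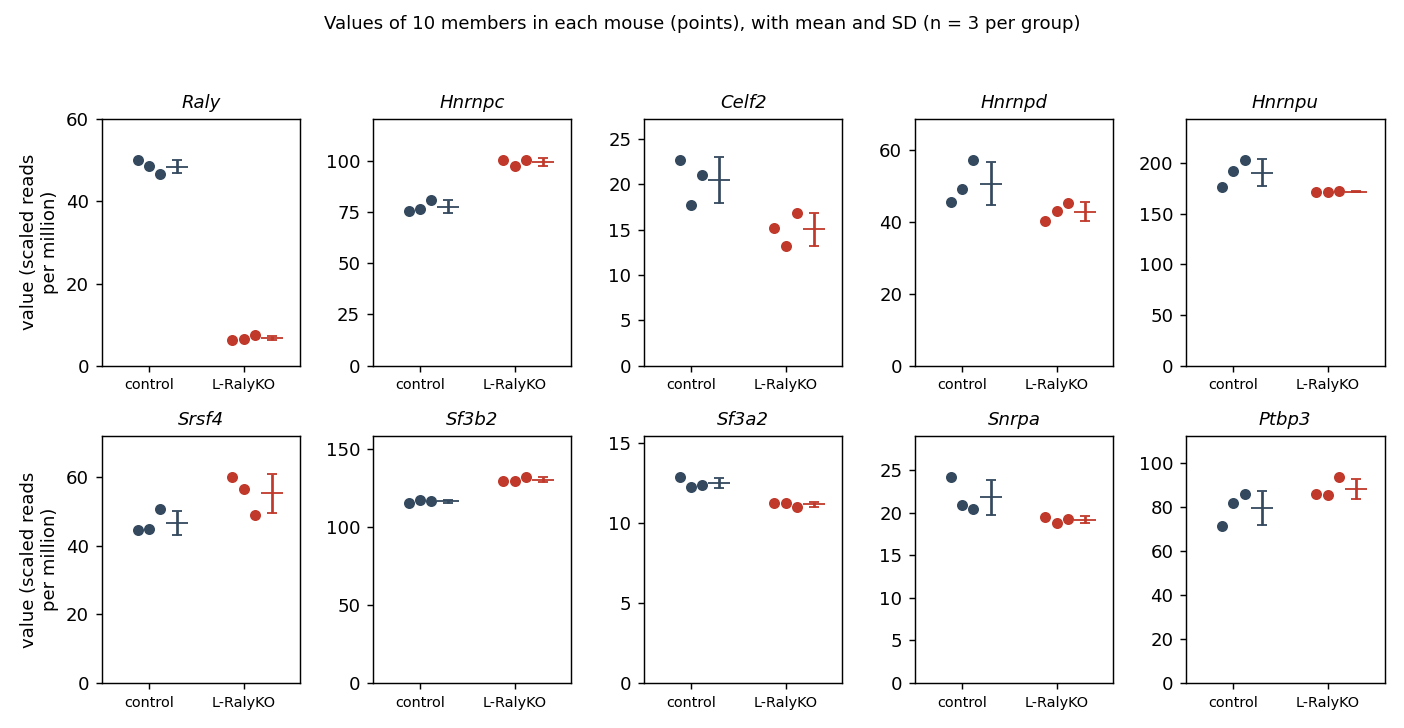
Values (reads scaled to effective library size, linear axes from 0) of 10 genes in each control and L-RalyKO mouse (points), with the group mean and SD (horizontal line and bar, n = 3 mice per group). Raly, Hnrnpc, Sf3b2 and Sf3a2 are separated by more than the range of either group, and of these only Raly and Hnrnpc were called. Srsf4 and Ptbp3 overlap between the groups.

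The promoter of Hnrnpc is shown because NF-Y, the CCAAT-binding factor that the study examined together with RALY, has a short motif that can be read from sequence. The motif searched was CCAAT on either strand (CCAAT or ATTGG) in the 250 bases before the RefSeq start site, and the search was made after the values of Hnrnpc had been seen. Capitals mark the matches in the window chr14:52104022-52104271 (− strand, RefSeq, GRCm38.p6), printed 5′ to 3′ on the gene's strand.
Hnrnpc promoter: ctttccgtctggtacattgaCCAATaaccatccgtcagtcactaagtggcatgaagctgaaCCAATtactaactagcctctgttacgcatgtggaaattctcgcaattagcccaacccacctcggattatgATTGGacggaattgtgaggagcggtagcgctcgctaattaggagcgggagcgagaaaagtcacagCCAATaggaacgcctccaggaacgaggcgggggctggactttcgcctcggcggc

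This window holds 4 matches, the nearest of them starting 54 bases before the start site, and the same window of Raly holds none. Windows of Hnrnpa1, Hnrnpl and Hnrnpr also hold 4, and none of these genes was called. A promoter window was found for 56 of the 66 genes, and at least 1 match was present in 36 of their 89 windows (40.4%). Over all 32851 promoter windows searched, of 27025 genes and not limited to those of the expression table, the share was 33.8%. At least 4 matches were present in 4 member windows (4.49%), against 0.840% of all windows, a cut taken from the count of Hnrnpc itself, so that this is a description only. A match is a run of letters and not a measured site. The mRNAs of the NF-Y subunits themselves did not pass the test, and Nfya stood at 10.2 ± 0.997 in the knockouts and 11.0 ± 0.781 in the controls (SD, n = 3 each, adjusted p = 0.534, limma).

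Of the 20 hnRNP genes, Hnrnpc alone was called, 11 had log2 fold changes above 0 and 9 below, and the median was 0.01. The share called was 5%, against 6.55% of all tested genes. The summed value of the 20 genes was 1916 ± 25.7 in L-RalyKO and 1920.1 ± 84.0 in control mice (SD, n = 3 each, exact two-sided permutation p = 0.9). Without Hnrnpc, the 19 others ranged from −0.23 for Hnrnpd to 0.25 for Hnrnpa1, with a median of 0.00. The sums differed by less than the spread between control mice.

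Per kilobase of exon, Hnrnpf was the highest of all 60 genes, with a mean of 69.7 over the 6 mice. Hnrnpf binds G-rich runs near splice sites and had values of 202, 196 and 193 in L-RalyKO and 189, 195 and 202 in controls. These overlap throughout, and the log2 fold change was 0.01 (95% interval −0.10 to 0.12). Next in level per kilobase came Hnrnpa2b1 with 64.3, Hnrnpk with 60.5 and Hnrnpab with 55.8, whose mice overlap between the groups. The lowest hnRNP gene was Hnrnph3 with 3.60 per kilobase. Hnrnpk, which binds C-rich sequences and also acts in transcription, had a log2 fold change of 0.04 with an interval of −0.07 to 0.14.

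Hnrnpd, which encodes the AU-rich element binding protein AUF1, had the lowest log2 fold change of the hnRNP genes. Its values were 40.3, 43.2 and 45.3 in L-RalyKO and 45.6, 49.1 and 57.3 in control liver. The groups did not overlap, but the highest L-RalyKO and the lowest control value lay close together, and the difference (log2 fold change −0.23, 95% interval −0.42 to −0.03) had an adjusted p of 0.154 (limma). Hnrnpu, the scaffold attachment factor A, had values of 172, 172 and 173 in L-RalyKO and of 176, 193 and 203 in controls. All L-RalyKO livers were below all controls, with nearly all of the spread on the control side (log2 fold change −0.15, adjusted p = 0.173, limma). Hnrnpa0 also separated the groups, with 58.3, 67.0 and 62.1 against 67.6, 69.1 and 68.3 (adjusted p = 0.227, limma).

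Hnrnpa1, the classical antagonist of SR proteins, had values of 29.3, 29.8 and 27.7 in L-RalyKO and 19.8, 24.5 and 28.8 in control liver. The third control lay inside the L-RalyKO range, and the log2 fold change of 0.25 had an interval of −0.01 to 0.52 (adjusted p = 0.236, limma). It was 0.12 without control replicate 1 (adjusted p = 0.507, limma) and 0.38 without control replicate 3 (adjusted p = 0.0512, limma), the lowest and highest of the 17 alternatives. Its sequence is not unique: 80.4% of its 50-base words occur elsewhere, and 78.2% occur in the pseudogene Gm10052, which has its own row in the table. That pseudogene had values of 26.7, 31.4 and 31.4 in L-RalyKO and of 28.0, 32.3 and 25.7 in controls, about as high as Hnrnpa1 itself. The sum of both rows was 56.0, 61.2 and 59.1 against 47.8, 56.8 and 54.5, which overlaps between the groups. The level of Hnrnpa1 printed here is therefore uncertain by the share of its reads that was assigned to the copy.

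The polypyrimidine tract binding proteins repress exons flanked by CU-rich sequence, and Ptbp1 is the form of most tissues while Ptbp2 is mainly neuronal. Ptbp1 had values of 95.6, 94.4 and 82.6 in L-RalyKO and 94.9, 99.3 and 99.8 in control liver. One L-RalyKO mouse was lower than the others, 1 lay inside the control range, and the log2 fold change was −0.11 (adjusted p = 0.349, limma). Ptbp3 had values of 85.9, 85.8 and 93.8 against 71.3, 81.9 and 86.0, again with overlap (log2 fold change 0.15, adjusted p = 0.271, limma). Ptbp2 was measurable at 7.60 ± 0.965 in control and 8.23 ± 0.589 in L-RalyKO liver (SD, n = 3 each). Per kilobase of exon, the means of Ptbp1, Ptbp3 and Ptbp2 were 19.9, 11.2 and 2.35.

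CELF proteins bind GU-rich sequence and act in splicing and mRNA decay. Only Celf1 and Celf2 were tested, and both log2 fold changes were below 0. Celf1 was the higher of the pair per kilobase (13.4 against 1.45), with values of 109, 112 and 109 in L-RalyKO and 111, 116 and 122 in controls. The second L-RalyKO mouse lay just inside the control range, and the log2 fold change was −0.08 (adjusted p = 0.393, limma).

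Celf2 showed the lowest log2 fold change after Raly. It lies on chromosome 2 (chr2:6460751-7002348, − strand, NCBIM37), far from Raly on the same chromosome, and had values of 15.1, 13.1 and 16.8 in L-RalyKO and 22.7, 17.7 and 21.0 in control liver. The groups did not overlap, although the highest L-RalyKO and the lowest control mouse were close. The log2 fold change was −0.42 (95% interval −0.67 to −0.17, adjusted p = 0.0585, limma), so Celf2 was not called, and in 4 of the 17 alternative fits it was, over a range of adjusted p from 0.00681 to 0.173. Celf2 is abundant in lymphocytes, and the summed value of 6 lymphocyte markers was 6.50 to 8.95 in L-RalyKO and 8.32 to 10.4 in control liver. Of these only Ptprc reached the minimum mean, and its log2 fold change was −0.19 (adjusted p = 0.495, limma), and none was at 0. Their part in the result for Celf2 was not tested. Celf4 ranged from 0.348 to 0.789 and Celf3 from 0 to 0.116, both under the minimum, and Celf5 reached at most 0.0526.

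**Figure D3:**
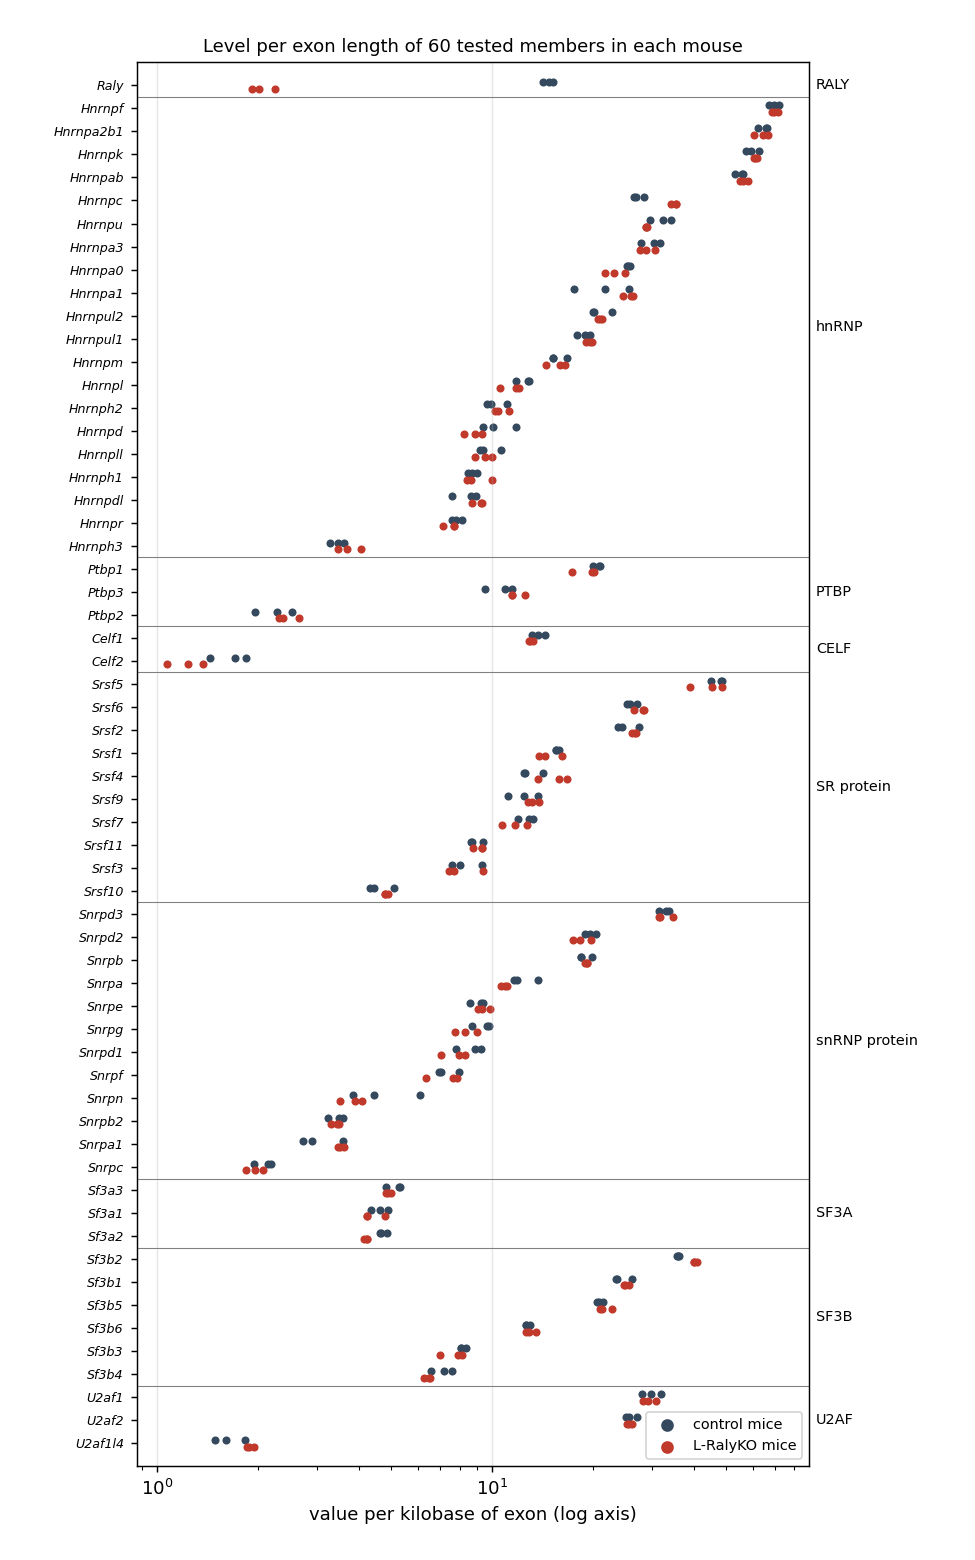
Level per kilobase of exon (log axis) of the 60 tested genes in each of 3 control and 3 L-RalyKO mice, ordered by level inside each subfamily. Levels run from 1.45 for Celf2 to 69.7 for Hnrnpf (means of 6 mice), and points of the 2 groups coincide for most genes other than Raly and Hnrnpc.

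Among the SR proteins, none of the 10 tested genes was called, 6 log2 fold changes were above 0 and 4 below, and no gene separated the groups. Over all tested genes, 6.55% were called and the groups did not overlap for 28.1%. With so few genes, the absence of calls does not set the subfamily apart. Srsf5 was the highest per kilobase of exon (45.8), with values of 155, 195 and 181 against 179, 192 and 194 in controls. The range of the L-RalyKO mice spanned the whole control range, and the log2 fold change was −0.10 (95% interval −0.28 to 0.09). Srsf4, which encodes SRp75, had values of 60.1, 56.6 and 49.1 in L-RalyKO and 44.6, 44.9 and 50.7 in controls. Although 2 L-RalyKO mice were above every control, the other fell inside the control range, and the difference (log2 fold change 0.24, unadjusted p = 0.0204) had an adjusted p of 0.134 (limma). Srsf7 had the lowest log2 fold change, −0.12, with 25.5, 27.9 and 30.2 against 31.5, 28.4 and 30.7, and the groups overlapped. The summed value of the SR genes was 688 ± 28.3 in L-RalyKO and 684 ± 28.4 in control mice (SD, n = 3 each, exact two-sided permutation p = 1).

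The snRNP protein genes encode the Sm core (Snrpb, Snrpd1 to Snrpd3, Snrpe, Snrpf, Snrpg and the imprinted Snrpn) and proteins specific to the U1 and U2 particles (Snrpa, Snrpc, Snrpa1 and Snrpb2). None of the 12 was called, 3 log2 fold changes were above 0 and 9 below, and the median was −0.05. As 6.55% of all tested genes were called, this does not set so small a subfamily apart. The highest level per kilobase of exon was that of Snrpd3 (32.7), with values of 19.0, 19.2 and 21.0 in L-RalyKO and 19.0, 19.99 and 20.4 in controls. The groups overlap throughout, with an interval of the log2 fold change of −0.15 to 0.14.

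Snrpa, a U1 snRNP protein, was the only snRNP protein gene whose groups did not overlap, with 19.5, 18.8 and 19.3 in L-RalyKO and 24.2, 20.9 and 20.4 in controls. Such separation was found for 28.1% of all tested genes. The first control mouse stood above the others (log2 fold change −0.17, adjusted p = 0.205, limma). Snrpa1, a U2 snRNP protein, had the highest log2 fold change of the subfamily, 0.19, from values of 10.7, 11.1 and 10.9 against 8.97, 11.1 and 8.41. Here 2 controls were lower than all L-RalyKO mice and the other was not (adjusted p = 0.291, limma). Snrpn had the lowest, −0.27, with 7.74, 8.99 and 8.55 in L-RalyKO and 9.78, 13.4 and 8.46 in controls. The second control mouse was the highest and the third lay inside the L-RalyKO range, and the interval reached from −0.60 to 0.05. The proteins of Snrpb and Snrpn are 88.8% identical, and 7.23% of the 50-base words of Snrpn occur elsewhere in the genome.

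SF3A and SF3B together form the branch site module of the U2 snRNP. None of the 9 tested genes was called, against 6.55% of all tested genes, with 4 log2 fold changes above 0 and 5 below. For a set of this size, that does not set it apart. Sf3b2, which encodes SF3b145 and lies on chromosome 19 (chr19:5273923-5295455, − strand, NCBIM37), was the highest of them per kilobase of exon (38.2) and came closest to the threshold. Its values were 129.7, 129 and 132 in L-RalyKO and 115, 117 and 116 in control liver. Both groups were tight and did not overlap, yet the difference was small, 1.12-fold (log2 fold change 0.16, 95% interval 0.07 to 0.26, adjusted p = 0.055, limma), and it was not called in any of the 17 alternative fits, where the adjusted p was between 0.0517 and 0.154.

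Sf3b1, the largest SF3B subunit and the target of splicing inhibitors, had a log2 fold change of 0.05 (95% interval −0.08 to 0.17). Sf3b4 was the lowest of the SF3B genes in log2 fold change, −0.14, with 13.5, 14.1 and 14.1 against 15.5, 14.2 and 16.5. The groups did not overlap by a narrow margin, and 50.8% of its 50-base words occur elsewhere (adjusted p = 0.289, limma). All 3 SF3A genes had log2 fold changes below 0, from −0.15 for Sf3a2 to −0.06 for Sf3a1 and Sf3a3. Sf3a2 had values of 11.2, 11.3 and 11.0 in L-RalyKO and 12.9, 12.3 and 12.4 in controls. The 2 groups were separate (adjusted p = 0.191, limma), whereas Sf3a3, the highest per kilobase at 5.03, overlapped with 13.5, 13.9 and 13.7 against 13.5, 14.7 and 14.8.

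U2AF is a dimer of the large subunit encoded by U2af2, which binds the polypyrimidine tract, and the small subunit encoded by U2af1, which reads the AG at the end of the intron. U2af1 had values of 27.5, 28.4 and 30.0 in L-RalyKO and 29.0, 27.3 and 31.2 in controls, and both U2af1 and U2af2 had log2 fold changes of −0.02. All their mice overlapped between the groups. For U2af1, 72.4% of the 50-base words occur elsewhere in the genome, so its level per kilobase (29.7) is uncertain. U2af1l4, a shorter relative of the small subunit, had values of 7.07, 7.17 and 7.39 against 6.94, 5.68 and 6.11. The groups did not overlap, but the log2 fold change of 0.18 had an interval of −0.01 to 0.38 (adjusted p = 0.248, limma).

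Across the 58 tested genes other than Raly and Hnrnpc, the intervals describe how closely each change was estimated. They are intervals of single genes on the log2(value + 1) scale, not adjusted over the 58, and so are not joint limits. The 95% interval of the fold change lay within 1.2-fold in either direction for 37 of them and within 1.5-fold for 56, and no interval bound was lower than −0.67 or higher than 0.52 on the log2 scale. The interval included 0 for 51 genes, and none of the 58 had a fitted change of 1.5-fold or more. Among all 60 tested members, 1 gene (1.67%), Raly, reached that size, against 2.96% of all tested genes. The median residual SD of log2 values between mice of a group was 0.0802 for the 60 genes, against 0.0827 for all tested genes with a mean of at least 5.

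Some levels are less certain than others because families of this kind have left many processed copies in the genome. More than 5% of the 50-base words occur elsewhere in NCBIM37 for 22 of the 60 genes, more than 20% for 17 and more than 50% for 5, which were Hnrnpa3 (83.6%), Hnrnpa1 (80.4%), U2af1 (72.4%), Hnrnpf (68.1%) and Sf3b4 (50.8%). For 27 genes the share was under 1%, and in these the median log2 fold change was 0.00 and 1 gene, Raly, was called. Exon bases were shared with another annotated gene for 20 of the 60, on the same strand for 5 and on the other strand for 16, and whether the counting used strand is not stated.

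**Figure D4:**
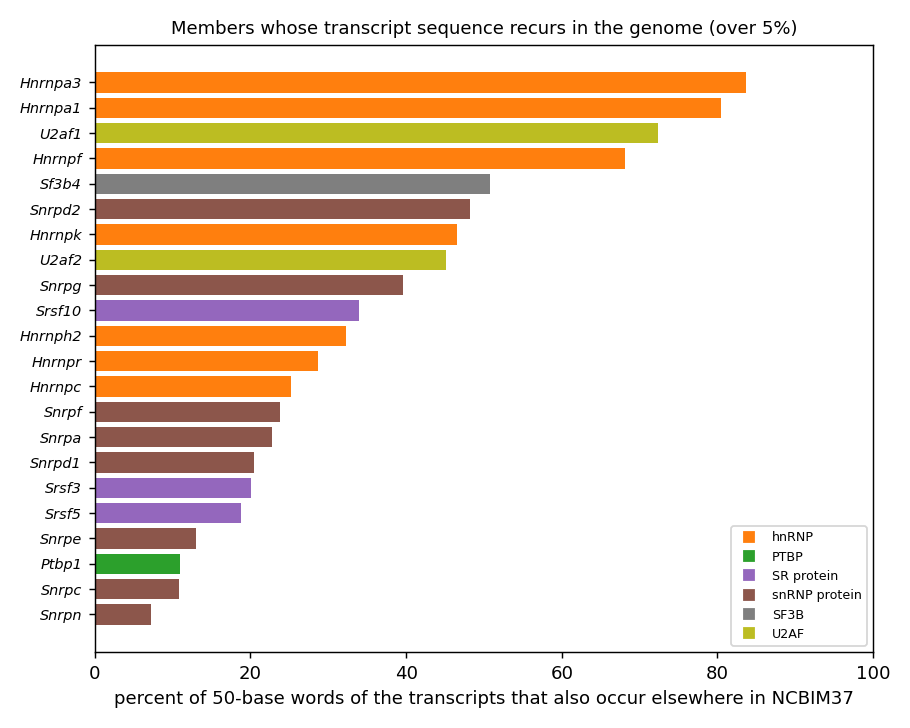
Percent of the 50-base words of each gene's annotated transcripts that also occur elsewhere in the NCBIM37 genome, for the 22 tested genes above 5%, coloured by subfamily. The longest bars are those of Hnrnpa3 and Hnrnpa1 at over 80%, and Hnrnpc stands at 25.2%.

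Other splicing genes were counted from lists. Of 206 tested genes in 9 such lists and the list of NF-Y subunits, 7 (3.4%) were called, against 6.55% of all tested genes, 3 higher and 4 lower, and the median log2 fold change was −0.02. At an unadjusted p under 0.05, 10 were higher and 28 lower, against 1365 and 1267 of all 11580 genes, and 83 log2 fold changes were above 0 and 123 below, against 5925 and 5655. The groups did not overlap for 62 of the 206, and for 17 of 32 among other splicing regulators, against 28.1% of all tested genes. None was called among 13 hnRNP proteins under other symbols, 22 other U2 snRNP and branch site factors, 14 LSM proteins, 33 Prp19 complex and catalytic step factors and 15 genes of the exon junction complex. In the tri-snRNP list 1 of 28 was called, in the list of snRNP assembly genes 1 of 17, in other SR and SR-related genes 2 of 29 and in other splicing regulators 3 of 32. None was called among 7 tested genes whose symbols begin with Snrnp, a set added after the values were seen.

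**Figure D5:**
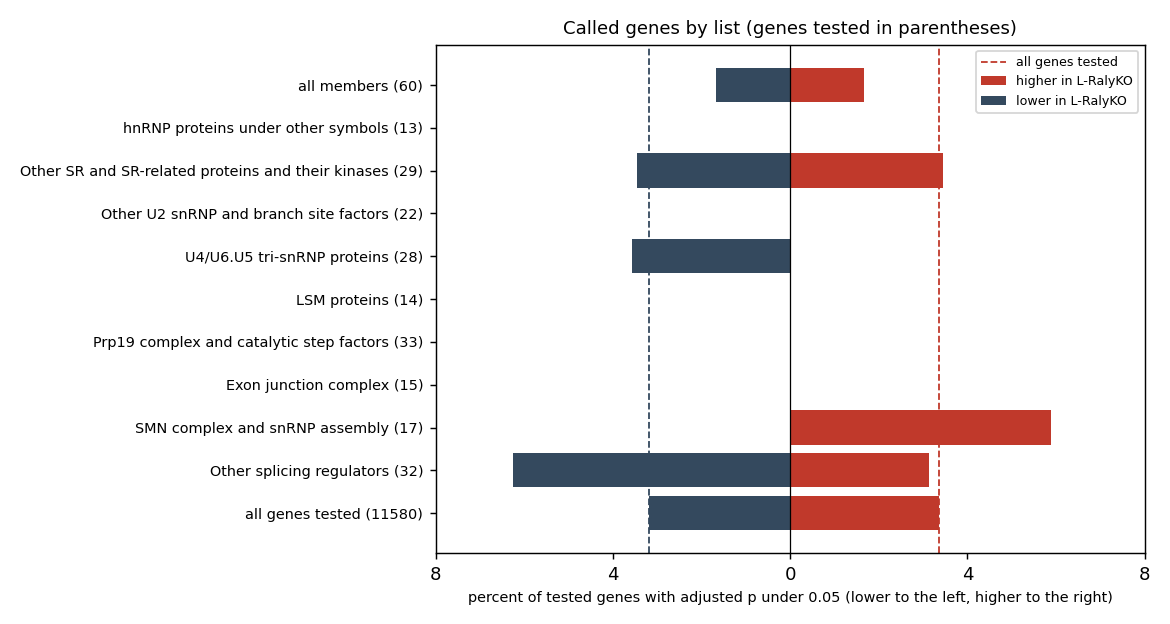
Percent of tested genes with an adjusted p under 0.05 (limma) that were higher (bars to the right) or lower (bars to the left) in L-RalyKO liver, for the 60 tested genes and for 9 lists of other splicing genes, with the number tested in parentheses. The dashed lines mark all 11580 tested genes, at 3.36% higher and 3.19% lower.

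Of the 7 called genes, 3 were higher in L-RalyKO liver. Srrm4, which drives neuronal microexons, had values of 7.71, 6.99 and 7.39 in L-RalyKO and 2.30, 2.52 and 2.95 in control liver. All L-RalyKO mice were more than 2-fold above every control (log2 fold change 1.22, adjusted p = 0.000537, limma), from a low level. The summed value of 4 neuronal markers was 17.4 to 20.3 in L-RalyKO and 15.0 to 17.3 in control liver. Most of that sum was Syt1, whose groups overlapped, and Snap25 was listed at 0 in every mouse. Rbfox3 (0.605 to 0.667 in L-RalyKO, 0.270 to 0.387 in controls) was under the minimum mean and did not overlap. Map2 (1.13 to 1.39 against 0.666 to 0.924) did not overlap either (log2 fold change 0.34, adjusted p = 0.130, limma). The part of these markers in the result for Srrm4 was not tested. Mbnl2, a muscleblind regulator of alternative exons, had 72.4, 59.5 and 64.9 against 46.6, 43.4 and 51.6, again without overlap (log2 fold change 0.47, adjusted p = 0.0168, limma). Gemin2, of the SMN complex that loads Sm rings, rose by 0.35 on the log2 scale, from 11.0 ± 1.02 to 14.3 ± 0.698 (SD, n = 3 each, adjusted p = 0.0406, limma).

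The genes that fell were Khdrbs3, Rbfox2, Mfap1b and Scaf4. Khdrbs3, which encodes the STAR protein T-STAR, had 14.6, 15.2 and 16.1 in L-RalyKO and 23.5, 19.2 and 19.2 in controls. The L-RalyKO livers were all lower (log2 fold change −0.41, adjusted p = 0.0315, limma). Rbfox2, which binds UGCAUG, had 30.5, 27.7 and 30.1 against 34.5, 38.3 and 41.4, also without overlap (log2 fold change −0.36, adjusted p = 0.0270, limma). Mfap1b, of the tri-snRNP list, fell by 0.23 on the log2 scale (adjusted p = 0.0493, limma). Scaf4, an SR-related protein that binds RNA polymerase II, fell by 0.22 on that scale (adjusted p = 0.0441, limma). These adjusted p values and that of Gemin2 lay close to the threshold. The calls of the list genes rest on the main fit, and whether they hold in the alternative fits was not tested. Sequence shared with other genes was not examined for the list genes.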

How the data were processed

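Liver RNA of 3 L-RalyKO and 3 control mice was analysed from the deposited expression table, in which each of 6 columns is 1 mouse. A figure legend of the paper gives more RNA-seq mice per group than these 3. The methods give a stranded library kit, TopHat and Cufflinks v2.0.2 with mm9 and FPKM values, and do not describe the deposited values. What the authors deposited is a scaled signal: reads of a gene scaled to the effective library size. In each mouse 100% of the values equalled a whole number of reads within a tolerance of 0.01, and the scaling factors equal TMM factors from edgeR 4.0.16. These reads were used for edgeR's quasi-likelihood test, which called 731 genes, and for DESeq2 1.42.0 and limma voom.

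The main test was limma 3.58.1 (R 4.3.3) with its trend option on log2(value + 1), over 11580 genes with a mean of at least 1, and with Benjamini-Hochberg adjustment it called 758 genes. That scale understates changes of low genes. Intervals are at the 95% level. Precision is limited by 3 mice per group and by the 28302983 to 38052705 reads per library. Scripts were tested on simulated data. No 2 libraries of a group were duplicates.

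The members and lists were chosen with earlier results of these data known. Named are Raly, Ralyl and Hnrnpc, each called gene, the highest per kilobase, highest and lowest log2 fold change of a subfamily, and genes without overlap at an unadjusted p under 0.05. Hnrnpa0, Hnrnpa1, Hnrnpk, Ptbp2, Sf3b1 and the genes named in ranges were added after their values were seen. Coordinates, exon lengths and 50-base words come from GENCODE vM1 on NCBIM37 (62 of 66 symbols matched directly and 4 through an identifier or synonym), and promoters from RefSeq on GRCm38.p6. The 17 alternatives were other pseudocounts (0.1 and 0.5), filters, scalings and tools, a replicate block and leaving out each mouse. ATAC-seq and ChIP-seq were not used here.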

Additional observations from a re-analysis of the deposited data

How the results depend on the processing

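Raly was lower and Hnrnpc higher at an adjusted p under 0.05 in all 17 alternatives (log2 fold changes of −2.84 to −2.63 and 0.32 to 0.38), and the median over the tested members stayed between −0.04 and 0.02. The number of members called lower was 1, and it was 2 with total count scaling and with DESeq2, the added gene being Celf2 (log2 fold change −0.45, adjusted p = 0.0481, and −0.45, 0.00681). Leaving out each mouse in turn gave 1 to 2 members called lower, 2 only without control replicate 2 (Celf2, −0.52, adjusted p = 0.0363, limma), and 2 to 3 called in all. Over all alternatives the adjusted p of Celf2 ranged from 0.00681 to 0.173. The cause was not tested. Over all genes, the number called fell to 484 when genes with any read were tested, and was between 332 and 813 when a mouse was left out. Neither called member changed direction. Of the 60 tested members, 14 had a log2 fold change that took the other sign in at least 1 alternative, none of them called in any, with reported sizes of at most 0.0425, as did the medians of the hnRNP and U2AF genes, of all members and of all genes.

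Same-numbered mice of the 2 groups are different animals, and their deviations from the group means correlated at 0.0664, −0.0238 and 0.0196. Differently numbered mice gave −0.0878 to 0.0599. With 3 mice per group, these values cannot show whether the numbers pair the samples, and the main test used no pairing. With the replicate block, 704 genes were called instead of 758, and 2 members were called lower, Raly and Celf2 (−0.42, adjusted p = 0.0260, limma).

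The limits are the 3 mice per group, sequence shared with copies for the genes named in the text, the unstated strand setting, and bulk liver, in which cell types are mixed.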
